A study of Mus musculus with 6 samples.

Results

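Mast cell lineage libraries of the mouse embryo were compared with the other cells sorted from the fetal liver to find the genes that set the lineage apart at every stage sampled. The lineage side holds 4 libraries: mast cell progenitors (MCPs) of the fetal liver at embryonic day E11.5, MCPs of the limb at E11.5, MCPs of the limb at E14.5, and cells of the E16.5 skin, which 1 label calls MCPs and another mast cells. The other side holds 2 fetal liver libraries of E11.5, labelled erythro-myeloid progenitors (EMPs) and macrophages (MAC). These are all 6 libraries of the embryonic series, each the only one of its label. All embryos had a C57BL/6xFVB background, and all cells were sorted through Csf1r-iCre fate mapping, in which a Cre recombinase driven by Csf1r regulatory elements leaves a permanent mark in cells that once used them and in their descendants. A gene counted as apart when all 4 mast lineage libraries lay above, or all 4 below, both other libraries by at least 1 on the scaled log2(FPKM + 1) scale, which is 2-fold, and when its FPKM reached 10 in any library. FPKM counts sequenced fragments relative to transcript length and to the library's mapped fragments. Of 17909 genes, 4016 passed the FPKM filter. Since the rule used this contrast itself and each label had 1 library, the differences describe these libraries, and neither p-values nor standard errors are given.

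Mast cells are tissue-resident cells of the immune system that store proteases, histamine, serotonin and heparin in granules and release them when IgE bound to its surface receptor meets antigen. They depend on the receptor Kit for survival, and their progenitors enter tissues with the help of integrin beta 7. In the embryo an early wave of mast cells comes from EMPs of the yolk sac, which seed the fetal liver and also give macrophages, granulocytes, red cells and megakaryocytes.

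Steps between low FPKM values gave estimated depths of about 8550000 to 11950000 mapped fragments in the mast lineage libraries, against 12100000 in EMPs and 11250000 in the MAC library. At these depths a listed 0 allows up to 0.175 FPKM for a transcript of 2 kb (3 fragments, counting error only). The skin library stood apart, where 5675 genes reached an FPKM of 1, against 8270 to 8754 in each of the other 5 libraries, and its size factor of 0.524 (1.03 to 1.24 elsewhere) raises its scaled values. In it 26 genes were listed at 0 that had an FPKM of at least 10 in all 5 others, so a 0 is given as listed, not as absence. The sum over 10 mast cell markers was 383 to 15295 FPKM in the mast lineage libraries, against 129 in EMPs and 65.9 in the MAC library. In the library labelled MAC, granulocyte markers far exceeded macrophage markers. There 7 macrophage markers summed to 84.9 FPKM, while 5 eosinophil markers summed to 8349 and 10 neutrophil markers to 8106. Adgre1, the gene of the macrophage protein F4/80, read 18.4 and C1qa, a complement gene of tissue macrophages, 0.17. Csf1r read 34.1, the highest of the 6 libraries. Whether the label holds cannot be told from these sums. In EMPs the neutrophil markers summed to 10372 FPKM. Both E11.5 MCP libraries carried the same granulocyte transcripts at lower levels, with neutrophil sums of 1051 in the liver and 487 in the limb against 2.01 in limb MCPs at E14.5 and 8.30 in skin. In RNA of bulk cells, fewer cells of a type and less RNA per cell cannot be told apart.

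Higher in all 4 mast lineage libraries were 66 genes, 1.64% of the genes tested, and lower in all 4 were 165 genes, 4.11%. The genes that were higher were led by the granule protease gene Cpa3 and the IgE receptor gene Ms4a2, and the genes that were lower by the neutrophil genes Elane and Fcnb. Lower genes made up 71.4% of those apart, and 58.9% when values were rescaled to equal sums (TPM), where 113 genes were higher and 162 lower. The median gene past the filter was 0.18 lower on the log2 scale in the mast lineage, so list medians given below are to be read against −0.18. They cover only members past the filter, some of which passed it through a single side. Leaving a library out asks less of the rule, yet some genes were also lost. There were 132 higher genes without liver MCPs, 104 without EMPs and 101 without the MAC library, and 307 lower genes without EMPs. Without the skin library 92 genes were higher and 184 lower, and 64 of the 66 and 155 of the 165 were among them. Without the MAC library all 66 remained among the higher genes and 142 of the 165 among 197 lower ones. The higher set lost most without limb MCPs at E11.5, where 60 of the 66 remained among 68 genes. Without limb MCPs at E14.5, 61 remained among 65. Of the 165 lower genes 154 remained without EMPs.

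**Figure D1:**
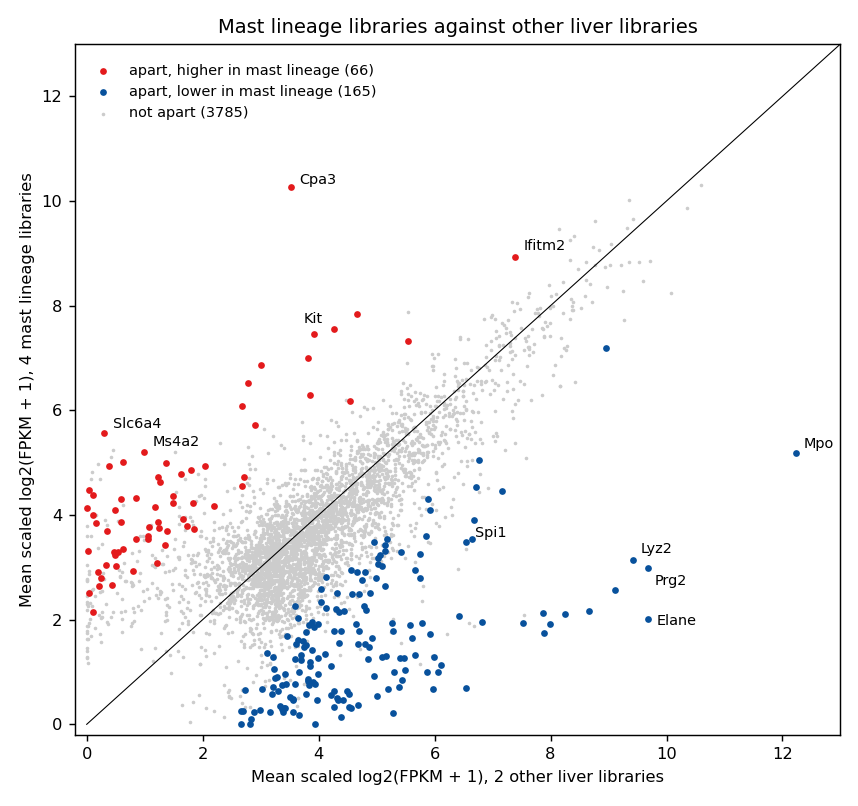
Mean scaled log2(FPKM + 1) of each gene past the filter over the 4 mast lineage libraries (vertical axis) and over the 2 other liver libraries (horizontal axis), with the line of equality. The 66 genes apart and higher are red, the 165 genes apart and lower are blue, and the other 3785 genes are grey; Cpa3 stands highest above the line and Elane and Mpo lie farthest below it.

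Cpa3, mast cell carboxypeptidase A, had the largest gap, meaning the distance between the nearest libraries of the 2 groups. It stood at 172 FPKM in liver MCPs, 417 in limb MCPs at E11.5, 1856 in limb MCPs at E14.5 and 13494 in skin, against 13.6 in EMPs and 10.3 in the MAC library. The gap was 3.59 log2 units, or 12.1-fold, and the level was higher at each step from the liver to the skin. Ms4a2 encodes the beta chain by which the high-affinity receptor for IgE amplifies its signal, and it read 23.8 FPKM in liver MCPs, 28.6 and 41.0 in limb MCPs at E11.5 and E14.5 and 47.3 in skin, against 1.80 in EMPs and 0.62 in the MAC library (gap 3.08). Skin was highest among the 4 mast lineage libraries. The promoters of these genes are shown because they lead the higher set and because GATA factors are known regulators of mast cell genes. Each is 300 bases on the gene's own strand from RefSeq on GRCm38.p6, chr3:20242132-20242431 (minus strand) for Cpa3 and chr19:11623670-11623969 (minus strand) for Ms4a2, with the letters AGATAA or TGATAA, or their reverse complements TTATCT and TTATCA, in capitals.
Cpa3: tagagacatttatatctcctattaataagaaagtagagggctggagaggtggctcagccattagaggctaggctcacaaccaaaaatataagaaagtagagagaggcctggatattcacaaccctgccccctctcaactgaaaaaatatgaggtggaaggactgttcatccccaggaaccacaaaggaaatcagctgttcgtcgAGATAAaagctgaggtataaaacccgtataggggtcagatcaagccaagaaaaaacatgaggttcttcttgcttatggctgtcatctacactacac
Ms4a2: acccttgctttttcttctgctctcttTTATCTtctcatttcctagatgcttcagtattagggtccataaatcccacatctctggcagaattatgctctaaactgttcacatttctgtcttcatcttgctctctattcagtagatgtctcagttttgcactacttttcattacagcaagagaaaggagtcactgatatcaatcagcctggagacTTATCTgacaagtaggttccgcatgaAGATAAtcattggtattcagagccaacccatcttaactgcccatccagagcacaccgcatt
The Cpa3 promoter held the letters once, beginning 46 bases before the annotated start, and the Ms4a2 promoter held them at 224, 37 and 11 bases before it. A match of letters is no evidence of binding.

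**Figure D2:**
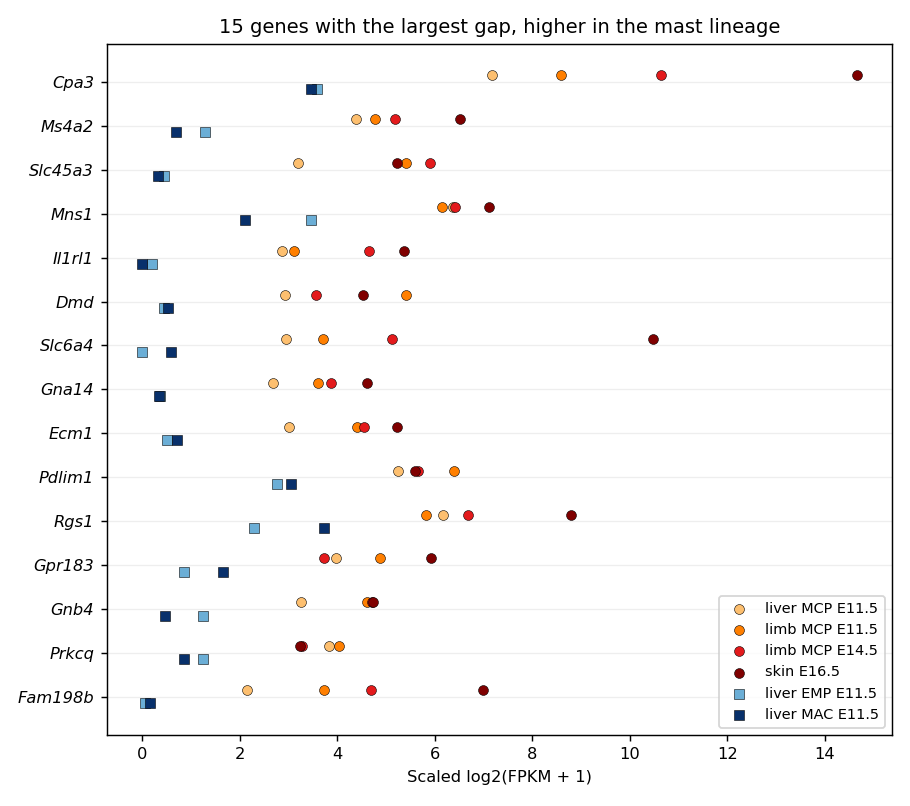
Scaled log2(FPKM + 1) in each library (horizontal axis) of the 15 higher genes with the largest gaps (rows), with round points for the 4 mast lineage libraries and squares for the 2 other liver libraries. As the rule requires, every round point lies to the right of both squares of its row. Cpa3 spreads over 7.49 log2 units among the mast lineage libraries.

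Receptors of the mast cell surface gave 3 higher genes of 16 past the filter and no lower one (median difference 0.96). Most of the 16 reached an FPKM of 10 only in mast lineage libraries, which favours a positive median. Kit, which binds stem cell factor, was measured at 95.3 FPKM in liver MCPs, 155 and 284 in limb MCPs at E11.5 and E14.5 and 239 in skin, against 41.7 in EMPs and 9.96 in the MAC library. Its gap of 1.21 was the distance from liver MCPs to EMPs. Il1rl1, the receptor for interleukin 33, ranged from 7.60 FPKM in liver MCPs to 28.2 in limb MCPs at E14.5, against 0.19 in EMPs and a listed 0 in the MAC library. Cd200r3, an activating receptor of mast cells and basophils, ranged from 3.80 FPKM in limb MCPs at E11.5 to 40.7 in skin, against 0.68 in EMPs and 0.47 in the MAC library. The members not apart differed in direction. Mrgprb2, the receptor for basic secretagogues, read 145 FPKM in skin, but at most 0.81 in the other mast lineage libraries. It was listed at 0 in EMPs and read 0.13 in the MAC library. Cd63 was similar on both sides, with 53.6 to 131 FPKM in the mast lineage, against 92.7 in EMPs and 132 in the MAC library. Some other members had a lower mean in the mast lineage.

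The chains and adaptors of IgE receptor signalling were split, with 3 of 18 higher, 3 lower and a median difference of 0.03. Besides Ms4a2, the higher ones were Lat and Lat2, membrane adaptors that collect signalling proteins after receptor activation. Lat ranged from 6.56 to 11.4 FPKM over the mast lineage libraries, against 1.23 in EMPs and 0.21 in the MAC library. Lat2 ranged from 3.99 to 18.5 FPKM, against 0.66 in EMPs and 1.15 in the MAC library, at a gap of only 1.02. With a pseudocount of 5 in place of 1 neither was apart. Lat was also lost without limb MCPs at E11.5, and Lat2 with size factors over all genes above 0. The lower ones were Syk, the kinase recruited by the receptor, Plcg2, the phospholipase that follows it, and Orai1, the pore of the calcium entry channel. Syk read 7.14 FPKM in liver MCPs, 7.65 and 5.18 in limb MCPs at E11.5 and E14.5 and 1.69 in skin, against 19.4 in EMPs and 15.7 in the MAC library. Its gap of 1.03 lay just past the threshold, and Syk was not apart without scaling or in TPM. Orai1 ranged from a listed 0 in skin to 1.75 FPKM in liver MCPs, against 17.6 in EMPs and 11.7 in the MAC library. Fcer1a, the chain that binds IgE, was not apart, because limb MCPs at E11.5 lay within the threshold: it read 1.55, 1.26, 2.19 and 21.9 FPKM from liver MCPs to skin, a listed 0 in EMPs and 0.09 in the MAC library. Fcer1g, the gamma chain used by many receptors, read 74.1 to 449 FPKM in the mast lineage, against 68.3 in EMPs and 138 in the MAC library.

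Genes for the making and storage of amines and heparin had a median difference of 3.08, with 3 of 13 higher and none lower. Most of the 13 reached an FPKM of 10 only in mast lineage libraries, so the filter itself favoured a positive median. Slc6a4, the serotonin transporter, stood at 8.14 FPKM in liver MCPs, 13.1 and 39.6 in limb MCPs at E11.5 and E14.5 and 740.0 in skin, against a listed 0 in EMPs and 0.51 in the MAC library. Slc18a2, which loads amines into granules, read 1.59, 20.4, 28.0 and 42.7 FPKM along the same stages and was listed at 0 in both other libraries. Hs3st1, a sulfotransferase that acts on heparin chains, read 2.11 FPKM in liver MCPs, 18.8 and 106 in the limb at E11.5 and E14.5 and 27.8 in skin, against a listed 0 in EMPs and 0.05 in the MAC library. All 3 genes were therefore lowest in liver MCPs. The calls of Slc18a2 and Hs3st1 rested on low values there. With a pseudocount of 5 their gaps were 0.34 and 0.42, and neither was apart. Of the 10 members not apart, 8 were kept out by liver MCPs alone. Among them was Hdc, the enzyme that makes histamine, with 63.7 FPKM in liver MCPs, 114 and 564 in the limb at E11.5 and E14.5 and 579 in skin, against 60.5 in EMPs and 43.6 in the MAC library. Maob, an amine-degrading enzyme, read 2.15 FPKM in liver MCPs and 17.2 to 179 in the other mast lineage libraries, against 0.20 in EMPs and 0.62 in the MAC library.

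Granule proteases and cargo gave 1 higher gene of 13, Cpa3, although their median difference was 2.73. The tryptase gene Tpsb2 was listed at 0 in liver MCPs, read 0.21 FPKM in limb MCPs at E11.5, 605 in limb MCPs at E14.5 and 815 in skin, and was at 0 in EMPs and 0.33 in the MAC library. Mcpt4 and Tpsab1 had the same shape, with at most 0.12 FPKM in either E11.5 MCP library and at least 86.8 in both later ones, against at most 0.27 in the other liver libraries. Mcpt and tryptase genes are close copies among which reads can be split, and each value is uncertain. Gzmb, granzyme B, went the other way in the skin: 21.5 FPKM in liver MCPs, 56.4 and 12.3 in the limb, a listed 0 in skin, a listed 0 in EMPs and 0.31 in the MAC library. Srgn, the core protein that carries heparin, was abundant on both sides, with 227 to 1183 FPKM in the mast lineage, against 411 in EMPs and 318 in the MAC library.

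Several of the higher genes with the largest gaps are not on any mast cell list. Mns1, a structural protein known from sperm tails, was among the most even, with 98.9 FPKM in liver MCPs, 76.8 and 98.1 in limb MCPs and 72.0 in skin, against 12.4 in EMPs and 3.39 in the MAC library. Slc45a3, a solute carrier, ranged from 9.79 to 68.6 FPKM, against 0.44 in EMPs and 0.25 in the MAC library. Dmd, the dystrophin gene, ranged from 7.91 FPKM in liver MCPs to 45.0 in limb MCPs at E11.5, against 0.45 in both other libraries. Their known functions have little in common. Others of the 15 largest gaps were those of Rgs1, which shortens signals from chemokine receptors (60.6 to 232 FPKM, against 4.79 in EMPs and 12.6 in the MAC library), the alpha subunit Gna14 (6.57 to 15.99, against 0.35 and 0.28), the beta subunit Gnb4 (10.3 to 29.6, against 1.68 and 0.38) and the oxysterol receptor Gpr183 (14.4 to 31.2, against 1.0 and 2.22), with EMPs before the MAC library each time. Prkcq, protein kinase C theta, ranged from 4.42 to 16.8 FPKM, against 1.71 in EMPs and 0.83 in the MAC library. The gaps of Ecm1, Pdlim1 and Fam198b were 2.31, 2.20 and 1.99. The regulator list to which Rgs1 belongs had 2 of 20 higher and none lower. The other was Spred1, an inhibitor of growth factor signalling, at 5.04 to 34.0 FPKM, against 1.66 in EMPs and 1.24 in the MAC library.

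A cytokine receptor and an adhesion receptor joined them. Il2rg, the gamma chain shared by several interleukin receptors, ranged from 60.9 FPKM in skin to 252 in limb MCPs at E11.5, against 18.6 in EMPs and 11.9 in the MAC library. Itgb7 read 10.4 FPKM in liver MCPs, 18.5 and 16.4 in limb MCPs and 1.39 in skin, against 0.15 in EMPs and 0.72 in the MAC library. Its gap of 1.10 was set by the skin library and the MAC library, and without scaling Itgb7 was not apart. The liver MCP and EMP libraries carry the names LiB7_pos and LiB7_neg, and if these stand for a sort on integrin beta 7, that difference was set by the gate. Lists of 15 cytokine receptors and 13 integrins and adhesion molecules had 1 higher gene each, with 3 and 1 lower. Among the more abundant higher genes, Lgals9, galectin 9, stood at 117 to 181 FPKM, against 64.1 in EMPs and 40.9 in the MAC library. The interferon-inducible neighbours Ifitm1 and Ifitm2, which can share reads, were highest in limb MCPs at E11.5 at 1393 and 917 FPKM. Ifitm1 read 387 FPKM in liver MCPs but only 45.4 in limb MCPs at E14.5 and 30.3 in skin. It read 21.7 in EMPs and 11.9 in the MAC library, and its gap was 1.11. Ifitm2 read 196 FPKM in skin, under the 224 of EMPs as deposited. Lgals9, Ifitm1 and Ifitm2 were not apart without scaling, nor was Ifitm1 with a pseudocount of 5.

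Of 21 factors of the mast, erythroid and megakaryocyte lineages none was higher and 2 were lower (median difference −0.10), beside 1.64% higher and 4.11% lower among all genes past the filter. Gata2, a factor needed for mast cells, read 16.9 FPKM in liver MCPs, 66.2 and 142 in limb MCPs and was listed at 0 in skin, against 10.98 in EMPs and 1.09 in the MAC library. Gata1, its relative, read 14.9, 16.3 and 12.3 FPKM in the liver and limb MCPs and 2.95 in skin, against 3.58 in EMPs and 4.36 in the MAC library, and was kept out by the skin library alone. Among 13 myeloid factors 2 were higher and 3 lower. Runx3, a Runt family factor, ranged from 9.52 to 19.4 FPKM, against 3.69 in EMPs and 1.53 in the MAC library. Egr1, an immediate early factor, read 84.3 FPKM in liver MCPs, 123 and 532 in limb MCPs and 386 in skin, against 30.8 in EMPs and 24.4 in the MAC library. Immediate early genes are known to respond to cell handling as well as to growth factors. In that list 2 of 16 were higher, Egr1 and Ier3, while Fos read 37.9 to 137 FPKM in the mast lineage, against 83.9 in EMPs and 130.4 in the MAC library; the part of handling was not tested.

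Neutrophil and monocyte granule genes made the largest block of lower genes, 18 of 29 past the filter with none higher (median difference −4.30). Some, such as Fcnb and Hp, passed the filter only through the other liver libraries, which favours a negative median. Elane, neutrophil elastase, had the largest gap of any gene, 5.59 log2 units or 48.2-fold. It read 14.7 FPKM in liver MCPs, 15.1 in limb MCPs at E11.5, 0.10 in limb MCPs at E14.5 and 0.12 in skin, against 1166 in EMPs and 732 in the MAC library. Mpo, myeloperoxidase, read 878 and 417 FPKM in the E11.5 liver and limb MCPs, 1.25 in limb MCPs at E14.5 and 1.03 in skin, against 8174 in EMPs and 3621 in the MAC library. Prtn3, proteinase 3, read 14.8 and 6.67 FPKM in the E11.5 MCP libraries and 0.09 and 0.12 in the later ones, against 383 in EMPs and 184 in the MAC library. The E11.5 MCP libraries thus held these transcripts at levels well above the later libraries; whether they came from other cells in the sort was not tested. The promoters of Elane and Prtn3 are shown because these neighbours on chromosome 10 had gaps among the largest of the lower set. They lie at chr10:79886062-79886361 and chr10:79879417-79879716 (plus strand, RefSeq, GRCm38.p6), and capitals mark GAGGAAGT, a sequence of the type bound by PU.1 and other ETS factors, searched on both strands and chosen after values had been seen.
Elane: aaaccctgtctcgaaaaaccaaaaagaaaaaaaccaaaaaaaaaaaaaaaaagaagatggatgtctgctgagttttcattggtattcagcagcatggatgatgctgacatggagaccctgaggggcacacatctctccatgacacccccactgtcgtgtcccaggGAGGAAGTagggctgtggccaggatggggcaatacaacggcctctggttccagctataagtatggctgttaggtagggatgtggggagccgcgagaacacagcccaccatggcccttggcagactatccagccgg
Prtn3: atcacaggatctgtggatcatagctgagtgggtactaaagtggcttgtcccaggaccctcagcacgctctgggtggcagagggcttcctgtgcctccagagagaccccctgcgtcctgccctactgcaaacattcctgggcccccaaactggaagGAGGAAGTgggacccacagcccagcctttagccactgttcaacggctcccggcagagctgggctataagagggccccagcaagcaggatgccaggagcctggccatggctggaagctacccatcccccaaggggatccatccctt
The letters began 85 bases before the Elane start and 95 bases before the Prtn3 start.

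**Figure D3:**
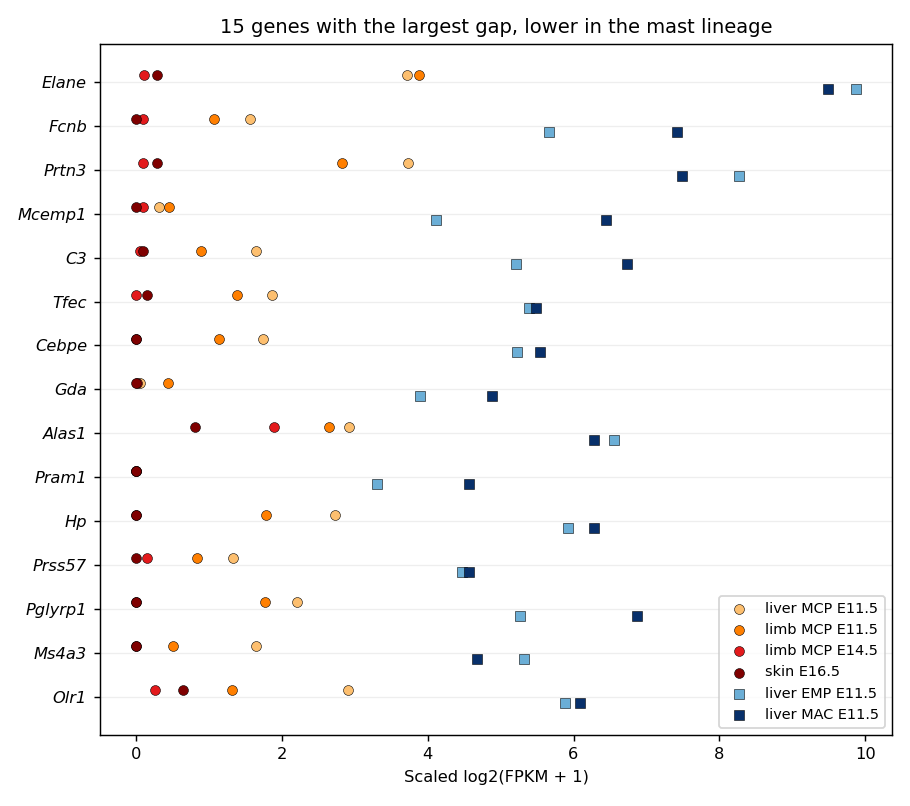
Scaled log2(FPKM + 1) in each library (horizontal axis) of the 15 lower genes with the largest gaps (rows), with round points for the 4 mast lineage libraries and squares for the 2 other liver libraries. Round points for limb E14.5 and skin sit near 0 except for Alas1, at 1.90 and 0.82. In most rows those for the E11.5 libraries lie between them and the squares, but for Gda and Mcemp1 they are also close to 0. Points at the same value hide each other, as for Pram1, listed at 0 in all 4 mast lineage libraries.

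Other lower genes, in this list or outside it, are also known from myeloid cells. Fcnb, ficolin B, ranged from a listed 0 in skin to 2.37 FPKM in liver MCPs, against 62.0 in EMPs and 175 in the MAC library. Hp, haptoglobin, reached 6.81 FPKM in liver MCPs and was listed at 0 in limb MCPs at E14.5 and in skin, against 74.4 in EMPs and 79.0 in the MAC library. Outside the list, Prss57, a further neutrophil serine protease, reached 1.83 FPKM, against 26.3 in EMPs and 23.3 in the MAC library. S100a8 and S100a9, which form calprotectin, reached 35.4 and 70.8 FPKM in liver MCPs and were listed at 0 in both later libraries, against 215 and 284 in EMPs and 965 and 1384 in the MAC library. Mcemp1, whose full name is mast cell-expressed membrane protein 1, was also lower, at 0.41 FPKM or less in the mast lineage, against 20.3 in EMPs and 88.2 in the MAC library. Also outside it, Pglyrp1, a bactericidal recognition protein, C3, the central complement protein, and Olr1, a receptor for oxidised lipoprotein, had gaps of 3.05, 3.56 and 2.98. Within it, Ms4a3, a marker of granulocyte and monocyte progenitors, had a gap of 3.03. In 3 further members of the list, Ngp, Lcn2 and Anxa1, liver MCPs alone lay too close to EMPs, as with Ngp at 17.7 FPKM in liver MCPs, against 18.2 in EMPs. Paralogs of the Stfa and Lyz families can share reads, so the values of Stfa1, Lyz1 and Lyz2 are uncertain.

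Of 9 eosinophil granule genes 3 were lower. Prg2, the major basic protein, read 40.4 and 54.1 FPKM in liver and limb MCPs at E11.5, a listed 0 in limb MCPs at E14.5 and 0.65 in skin, against 151 in EMPs and 5617 in the MAC library. Epx, eosinophil peroxidase, read 10.9 and 11.2 FPKM in the E11.5 MCP libraries, 0.03 and 0.45 in the later ones, 57.7 in EMPs and 737 in the MAC library. Both gaps were set by EMPs, which held far less than the MAC library. Of 17 macrophage genes 3 were lower: Csf1r, the receptor for macrophage colony-stimulating factor, Clec12a, a myeloid lectin, and Lyz1. Csf1r read 0.43 and 0.50 FPKM in liver and limb MCPs at E11.5, a listed 0 in limb MCPs at E14.5 and 0.13 in skin, against 12.3 in EMPs and 34.1 in the MAC library. Thus the gene whose regulatory elements drove the Cre was itself near 0 in all 4 mast lineage libraries. The mark left by Cre is permanent and does not need the gene to stay active. The receptor gene Csf3r, which serves granulocytes, behaved likewise, with at most 1.03 FPKM, against 21.1 in EMPs and 12.9 in the MAC library.

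The myeloid regulators Spi1, Cebpe and Irf8 were the lower ones of their list. Spi1, which encodes PU.1, read 15.4 and 15.9 FPKM in liver and limb MCPs at E11.5, 10.2 in limb MCPs at E14.5 and 3.34 in skin, against 108 in EMPs and 99.1 in the MAC library. It was lower but present at every stage. Cebpe, a factor of granulocyte maturation, read 2.83 and 1.32 FPKM in the E11.5 MCP libraries and was listed at 0 in the later ones, against 45.1 in EMPs and 47.0 in the MAC library. Irf8, a factor of monocytes, reached 3.15 FPKM in liver MCPs, against 12.0 in EMPs and 23.5 in the MAC library. Tfec, a relative of the mast cell factor Mitf, and Lyl1, a factor of blood progenitors, were the lower members of the mast and erythroid list. Tfec reached 3.21 FPKM in liver MCPs, against 50.7 in EMPs and 44.9 in the MAC library.

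Lower genes also lay in oxidant and sugar metabolism. Of 7 genes of the phagocyte oxidase and of pattern recognition 3 were lower, the oxidase subunits Cybb, Ncf1 and Ncf4. Cybb reached 3.34 FPKM in the mast lineage, against 11.1 in EMPs and 159 in the MAC library. G6pdx and Pgd, the enzymes of the pentose phosphate pathway that supply NADPH, were lower too, with G6pdx at 36.4, 27.9 and 21.7 FPKM in liver and limb MCPs and 7.15 in skin, against 127 in EMPs and 204 in the MAC library. They were 2 of the 4 lower genes among 20 of sugar metabolism (median difference −1.02), with Hk3 and Ldhb. The other 16 genes were not apart. Among these Gapdh, a glycolytic enzyme, had 445, 748 and 908 FPKM in liver and limb MCPs and 22.3 in skin, against 1285 in EMPs and 1153 in the MAC library, and Ldha, a lactate dehydrogenase, had 440 to 1054 in the mast lineage, against 566 in EMPs and 254 in the MAC library. Gpx1, glutathione peroxidase, was abundant in all libraries, with 31.2 to 297 FPKM, against 617 in EMPs and 510.3 in the MAC library, at a gap of 1.01 that fell under the threshold in TPM, without scaling and without the skin library. Alas1, the first enzyme of heme synthesis in cells other than red cells, had a gap of 3.37, with at most 7.91 FPKM in the mast lineage, against 116 in EMPs and 78.9 in the MAC library. Gda, guanine deaminase, had a gap of 3.45.

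Of 8 chemokine and chemoattractant receptors 3 were lower, Cxcr2, Cxcr4 and the leukotriene B4 receptor gene Ltb4r1, and 5 were not apart. The list's median difference of −0.21 was close to the −0.18 of all genes past the filter. Cxcr4 read 14.3 FPKM in liver MCPs, 3.26 and 0.78 in limb MCPs and 0.06 in skin, against 31.2 in EMPs and 93.5 in the MAC library. The gap of Cxcr4 was 1.03, and it was not apart in TPM (0.98), with a pseudocount of 5 (0.84) or without the skin library (0.95). Cx3cr1 and Ccr8 of that list were not apart, because liver MCPs lay above both other libraries by less than the threshold: Ccr8 read 1.23 FPKM in liver MCPs, 46.9 and 222 in limb MCPs and 12.9 in skin, against a listed 0 in EMPs and 0.39 in the MAC library. Among 9 lipid mediator enzymes 2 were lower, Ptgs1, which starts prostaglandin synthesis, and Lta4h, which makes leukotriene B4. Ptgs1 read 7.71 FPKM in liver MCPs, 2.87 and 2.41 in limb MCPs and 0.11 in skin, against 28.8 in EMPs and 37.7 in the MAC library. Tnfrsf1a, a receptor for tumour necrosis factor, reached 2.72 FPKM in liver MCPs, against 14.6 in EMPs and 15.1 in the MAC library.

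**Figure D4:**
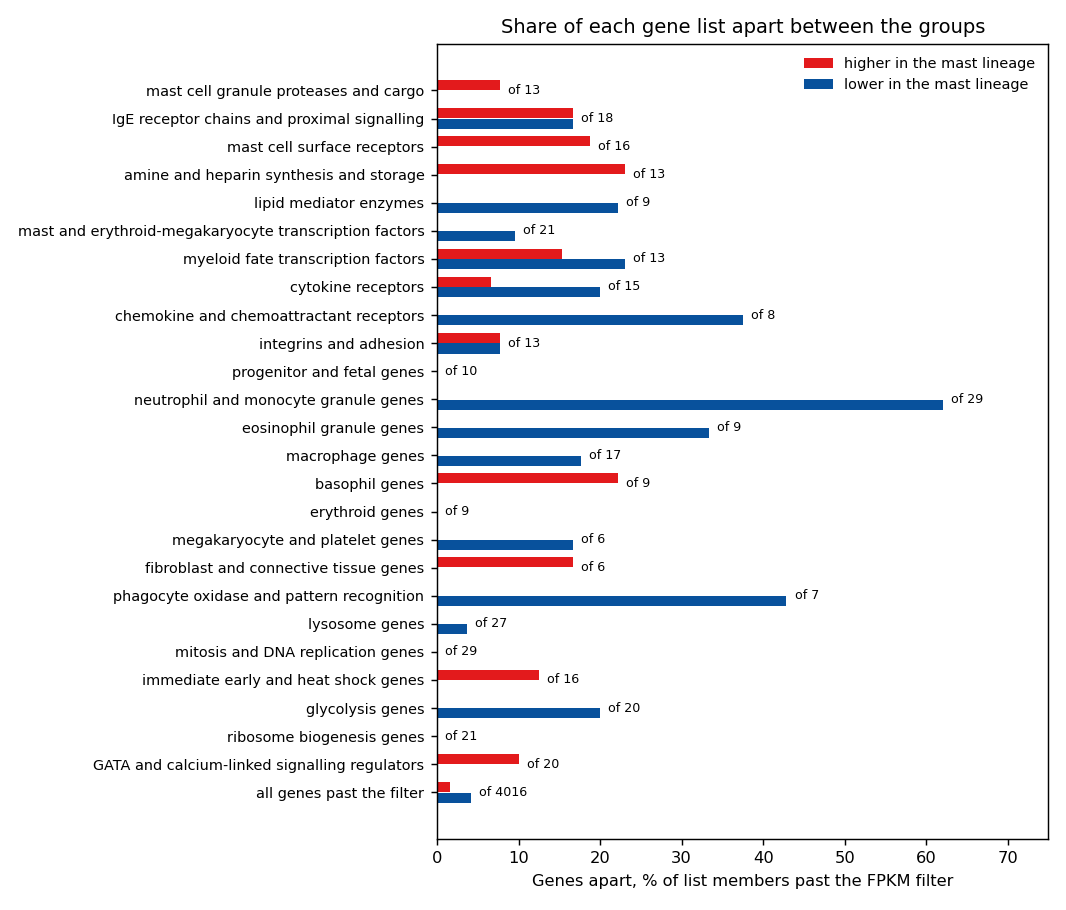
Share of each gene list that was apart, as a percentage of its members past the FPKM filter (horizontal axis), with red bars for genes higher and blue bars for genes lower in the mast lineage and the number of members tested beside each pair. Lists with at least 5 such members are shown, and the lowest row gives all 4016 genes, 1.64% higher and 4.11% lower.

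Counts for the lists of general cell functions stand beside 1.64% higher and 4.11% lower among all genes past the filter, shares at which lists of this size hold few or no such genes. None of 29 mitosis and replication genes was apart, although their median difference was −0.95, and 1 of 27 lysosome genes was lower. None of 21 ribosome biogenesis genes, of 10 progenitor genes or of 9 erythroid genes was apart. Mki67, a marker of cycling cells, read 38.3 to 93.7 FPKM in the mast lineage, against 71.7 in EMPs and 122 in the MAC library. Red cell transcripts were highest in liver MCPs, where 5 erythroid markers summed to 210 FPKM, against 47.4 in EMPs and 25.5 in the MAC library. Of 6 megakaryocyte and platelet genes 1 was lower, Thbs1, thrombospondin, at 0.06 to 2.41 FPKM, against 10.1 in EMPs and 21.2 in the MAC library. None of 2 lymphoid genes, 1 hepatocyte gene and 1 keratinocyte gene past the filter was apart, and no endothelial or muscle gene of the lists passed it. Of 9 basophil genes 2 were higher, Ms4a2 and Cd200r3, which mast cells express too. Sparc, a matrix protein gene, was the higher one of 6 connective tissue genes, with 4.06 to 18.8 FPKM, against 1.10 in EMPs and 0.63 in the MAC library. The sum of 4 fibroblast markers was 54.0 FPKM in limb MCPs at E14.5, 11.7 in skin and at most 0.42 in the E11.5 MCPs, against 0.07 in EMPs and 0.04 in the MAC library, and its part in Sparc was not tested. Sparc was not apart without limb MCPs at E14.5.

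The genes apart were not level among the stages. The 66 higher genes had a median scaled log2(FPKM + 1) of 3.17 in liver MCPs, 4.14 and 4.40 in limb MCPs at E11.5 and E14.5 and 4.97 in skin, against 1.27 in EMPs and 0.85 in the MAC library. Liver MCPs were the lowest mast lineage library for 47 of the 66, and skin the highest for 35. The step up to skin came with scaling: for the same genes as deposited, the median log2(FPKM + 1) was 3.42 in liver MCPs, 4.27 and 4.62 in limb MCPs at E11.5 and E14.5 and 4.08 in skin, against 1.46 in EMPs and 0.87 in the MAC library. As deposited, liver MCPs were lowest for 34 genes and skin for 24, and skin was highest for 20. After scaling, in 34 genes both later libraries lay above both E11.5 libraries, and 18 went up at every step, against 24 and 11 genes as deposited. The 165 lower genes ran the other way, with medians of 2.05, 1.79, 0.91 and 0.36 from liver MCPs to skin, against 4.17 in EMPs and 4.79 in the MAC library. In 113 of them both E11.5 libraries lay above both later ones (116 as deposited), and 53 were listed at 0 in skin. Of all 17909 genes, 6469 were listed at 0 in skin, against 2972 to 4918 in the other libraries. In both directions liver MCPs were, after scaling, the mast lineage library most often nearest to the other liver cells, for 47 higher and 99 lower genes. EMPs set the other side of the gap for 42 higher and 122 lower genes. None of these stage counts was made over all genes past the filter. Whether such orders are particular to the genes apart was not tested. Liver MCPs alone kept 68 further genes out of the higher set and 36 out of the lower set, against 21 and 31 for skin.

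**Figure D5:**
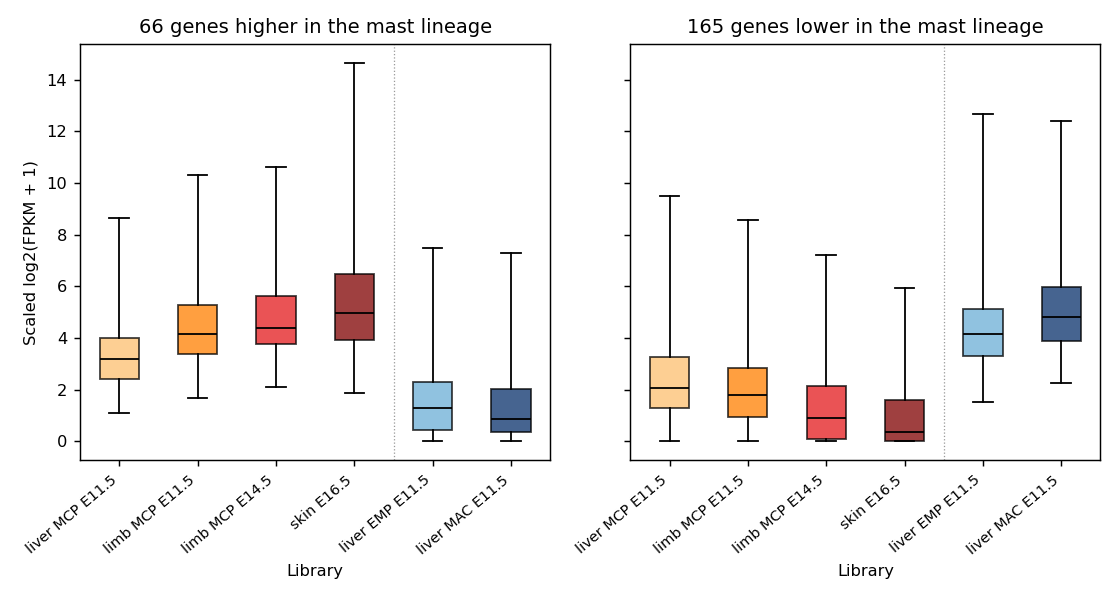
Scaled log2(FPKM + 1) of the genes apart in each library, as boxes from the lower to the upper quartile with the median as a line and whiskers to the lowest and highest gene; the 66 higher genes are on the left and the 165 lower genes on the right, and a dotted line divides mast lineage from other liver libraries. Medians of the higher genes go from 3.17 in liver MCPs up to 4.97 in skin, a last step not present in the values as deposited (4.62 in limb MCPs at E14.5, 4.08 in skin), and those of the lower genes from 2.05 down to 0.36.

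Position and promoter letters were examined as properties that the rule did not use. Among the 165 lower genes 14 neighbouring pairs lay within 100 kb of each other, and among the 66 higher genes 1, Ifitm1 and Ifitm2. Such pairs were not counted among all genes past the filter, so nothing is drawn from these counts. Several of the pairs are paralogs. On chromosome 10, 6 lower genes, Fstl3, Prss57, Palm, Prtn3, Elane and Arid3a, lay between 79777272 and 79955018 (GRCm38, GENCODE M21). The distance from Palm to Prtn3 was 53.6 kb and from Elane to Arid3a 38.8 kb. Genes in between that were not apart were not examined. Other pairs were Mpo and Epx on chromosome 11, S100a8 and S100a9 on chromosome 3 and Prg2 and Prg3 on chromosome 2. Fstl3 and Prss57 overlap, as do Tm7sf3 and Med21, and without a stated strand their reads cannot be told apart. Promoters of RefSeq (GRCm38.p6, 300 bases) were matched for 132 of the 165 lower genes. The letters GAGGAAGT stood in 17 of these (12.9%), against 144 of 3258 genes past the filter (4.42%), and AGATAA or TGATAA in 20 (15.2%), against 430 of 3258 (13.2%). The 3258 include the 132. GAGGAAGT was chosen after the values of the lower genes had been seen, so nothing is drawn from its contrast. Of the higher genes 52 of 66 (78.8%) were matched, under the 80% needed, so that comparison is void for them. In these 52, AGATAA or TGATAA stood in 8 (15.4%) and GAGGAAGT in 1 (1.92%). The shares are a description, and no factor's binding was measured.

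Near the threshold, the higher genes just inside were Slc35d1, Gpc4 and Hes1, with gaps of 1.02, 1.01 and 1.01, and those just outside Prdx4, Pdgfrb and P2rx4, with gaps of 0.996, 0.993 and 0.990. Lower genes just inside included Gpx1 and Med21, with gaps of 1.01 and 1.002, and those just outside Ceacam1, Tmx4 and Tubb6, with gaps of 0.9997, 0.995 and 0.991.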

How the data were processed

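RNA of sorted cells was sequenced in 6 libraries, 1 per label. The authors deposited 1 table of FPKM values with 2 decimals, for which the submitters' processing notes name Bowtie2, RSEM and the build mm10 (GRCm38), with versions not given in the sources used here. RSEM shares reads between similar transcripts by estimate, which affects paralogs. Of 17913 rows, 4 with a repeated name were dropped, leaving 17909 genes; 22 symbols had been turned into dates and are counted but not named (1 higher, 1 lower).

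Values were divided by median-of-ratios size factors over the 4580 genes that reached an FPKM of 1 in all libraries and taken as log2(x + 1). The rule for genes apart was checked on simulated data. Members and the 30 gene lists (678 genes of the table) were chosen with earlier results of these data known. Named were the 15 largest gaps and the 10 highest means in each direction, apart members of lists, and up to 4 other members per list by level, leaving out clone names, ribosomal protein and histone genes. The 3 genes inside and outside the threshold were named too. Outside this rule, named after values had been seen, are Fcer1a, Fos, Gata1, Gzmb and Tpsab1, chromosomal neighbours, 2 macrophage markers and genes of the closing section. A few genes that the rule selects are counted but not reported here by name. The depth estimate, added once values were known, used 1409 genes with 1 transcript (GENCODE M21), where 76.7% to 81.4% of values came within 0.2 of whole fragments. Stage levels as deposited were likewise added after values were known. Alternatives changed the pseudocount, filter, scaling, gap, zeros and libraries. Python 3.11.15, numpy 2.4.6, pandas 2.3.3 and matplotlib 3.10.9 were used.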

Additional observations from a re-analysis of the deposited data

How the results depend on the processing

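No paired analysis was possible because each label had 1 library and no test was run. The 66 higher genes became 109 with a pseudocount of 0.1, 26 with 5, 35 at an FPKM of at least 30, 113 in TPM, 13 at a gap of at least 2 and 412 at any gap above 0. The 165 lower genes became 93 with a pseudocount of 5, 83 at an FPKM of at least 30, 53 at a gap of at least 2, 748 at any gap above 0 and 105 without genes listed at 0. Leaving out 1 library at a time gave 65 (without limb MCPs at E14.5) to 132 (without liver MCPs) higher genes and 180 (without limb MCPs at E14.5) to 307 (without EMPs) lower ones. The counts with no filter, no scaling and size factors over all genes above 0, an alternative added after the data had been seen, stayed within 1.5 times. Of 86 apart genes of the naming rule, 54 were apart in all 12 settings other than the FPKM minimum of 30, the other gap limits and the removal of zeros, and Ifitm2 alone reversed, with a gap of −0.19 without scaling. A pseudocount of 5 took out 27, no scaling 7 (Gpx1, Ifitm1, Ifitm2, Itgb7, Lgals9 and Syk among them) and the absence of the MAC library 5 (Hk3, Ltb4r1, Ly6c2, Lyz1 and Prg3). These 5 were under an FPKM of 10 in every library but MAC, so they failed the filter, and their gaps stayed past 1. For the other settings the cause was not tested. Depth limits what a listed 0 means, above all in skin.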

Other observations

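After scaling, some genes apart kept nearly 1 level through all stages sampled; the genes in this paragraph were chosen after their values had been seen. Sepw1, a selenoprotein gene, ranged over 0.33 log2 units among the mast lineage libraries after scaling, with 32.6 FPKM in liver MCPs, 23.5 and 31.8 in limb MCPs and 13.96 in skin, against 7.47 in EMPs and 5.28 in the MAC library. Of the 66 higher genes 9 had a range under 1, Prkcq, Lgals9, Lat and Mns1 among them, and 18 a range of at least 3, the widest being those of Slc6a4 at 7.51 and Cpa3 at 7.49. Lower genes listed at 0 in all 4 mast lineage libraries were Pram1, an adaptor of myeloid cells, at 11.03 FPKM in EMPs and 23.4 in the MAC library, Gpr84, a fatty acid receptor of phagocytes, at 4.26 and 10.4, and Wfdc21 at 3.15 and 10.5. Of the 165 lower genes 20 were under an FPKM of 1 in all 4 mast lineage libraries.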
